A study of Homo sapiens with 9 samples.

Results

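The comparison set HEK293 cells that expressed surfactant protein C without exon 4 (Ex4) against HEK293 cells that expressed the wild-type protein (WT). Its members are the 3 arrays titled as the delta exon 4 mutant and the 3 titled as the wild-type control, 6 of the 9 arrays in the series. They carry 54613 non-control probe sets, all of them included, of which 32768 were bright enough to be tested. HEK293 is a line derived from human embryonic kidney, and the introduced SFTPC gene was expressed transiently in every group, the controls included. The 3 other arrays carry the L188Q form (LQ) and enter only where named. No untransfected or empty-vector cells were analysed here, and the promoter of the construct, the time of harvest and whether replicates were separate cultures are not given in the sources used here, so each p-value reflects array-to-array spread that could be technical alone. Ex4 replicate 1 is shown apart throughout because it lay between the groups.

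Surfactant protein C is a small, very hydrophobic peptide that alveolar type II cells of the lung cut from a membrane-anchored proprotein. The part of the proprotein inside the endoplasmic reticulum (ER) carries a BRICHOS domain, which shields the hydrophobic stretch while the protein folds, and loss of exon 4 removes part of that region. A protein that cannot fold in the ER is held by chaperones such as BiP, is drawn back to the cytosol and degraded, and can set off the unfolded protein response through the sensors IRE1, PERK and ATF6.

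Each value is an array intensity on a linear scale, and differences are Ex4 minus WT on the scale of log2(intensity + 16) with the standard error (SE) of the fit. Values on 3 arrays are given in the order of replicates 1, 2 and 3. A gene stands for its brightest probe set, and 14018 genes were tested. Adjusted p means limma's p after Benjamini-Hochberg adjustment over those genes, or over 32768 probe sets where a probe set is named, with a threshold of 0.05. The median intensity was 524.4, 506.4 and 509.1 on the WT arrays and 434.3, 316.1 and 342.8 on the Ex4 arrays. Every Ex4 array was lower than every WT array, by 0.49 in log2 (9.05 ± 0.026 against 8.56 ± 0.23, SD, n = 3, two-sided exact permutation p = 0.1, the smallest that 3 against 3 arrays allow). The 90th percentile was higher in Ex4, at 5219 ± 132 against 4794 ± 37.3 (SD, n = 3). Across tested probe sets Ex4 replicate 1 correlated on average at 0.906 with the other Ex4 arrays and 0.911 with the WT arrays, where Ex4 replicate 2 gave 0.926 and 0.871 and Ex4 replicate 3 gave 0.927 and 0.864. Of 12 genes known in HEK293, 10 lay above the array median on all 6 arrays, SALL4 below it on all 6, and their summed intensity was 168456 to 206346 in WT and 157086 to 167622 in Ex4. Alveolar type II markers other than SFTPC were above the array median on all 6 arrays for 5 of 14 (sum 11663 to 14675 in WT, 8272 to 10700.2 in Ex4), fibroblast markers for 2 of 11 (8897 to 10114 and 6589 to 7532). Blood cell markers were above it for 1 of 9 (3448 to 4014 and 1879 to 2254), and no defining marker was at 0. The part of these sums in the results was not tested.

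SFTPC, the introduced gene, was read by 5 probe sets that split into a pair that dropped and 3 that did not pass. On 205982_x_at the intensity was 169587, 239917 and 178933 on the WT arrays and 24666, 23779 and 19159.6 on the Ex4 arrays, a log2 difference of -3.11 ± 0.17 (SE, limma adjusted p = 8.9e-06). On 214387_x_at it was 158962, 239964 and 178182 in WT and 914, 39.1 and 28.7 in Ex4, with -10.49 ± 0.83 (SE, limma adjusted p = 0.00037). The groups lay far apart on both, yet Ex4 replicate 1 read far above the other Ex4 arrays on 214387_x_at, and the latter were below their array medians there, so the size of that difference is not measured. The other 3 probe sets overlapped or nearly met: 38691_s_at gave 160706, 231145 and 173710 in WT and 149954, 97702 and 172184 in Ex4. Their log2 differences were -0.65 ± 0.21 on 211735_x_at, -0.45 ± 0.21 on 38691_s_at and -0.82 ± 0.54 on 215454_x_at (SE, limma adjusted p = 0.11, 0.20 and 0.37). Ex4 arrays carried the introduced transcript at intensities of 97702 to 172184 on 38691_s_at, and where the pair of probe sets that dropped lies in the transcript was not analysed here.

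Apart from SFTPC, limma called 2 of 32768 probe sets, both higher in Ex4, which makes 4 in all (0.0122%). The named one was 203176_s_at of TFAM, the factor that packages mitochondrial DNA and starts its transcription. It read 2763, 2633 and 2513 in WT and 6145, 7124 and 7601 in Ex4, a log2 difference of 1.39 ± 0.15 (SE, limma adjusted p = 0.0098). Every Ex4 array, replicate 1 included, was more than 2 times the highest WT array, and the 3 WT arrays lay close together. The other TFAM probe sets had 0.88, 0.53 and 0.16, all positive and none called. The call of 203176_s_at was lost without WT replicate 2 or 3, without Ex4 replicate 2 or 3, without LQ replicate 2, without the variance trend and with only the 6 arrays compared. The second probe set, 224610_at, which names no single gene, read 17051, 14913 and 14371 in WT and 32614, 32734 and 35875 in Ex4 (1.13 ± 0.14, SE, limma adjusted p = 0.028).

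Over genes limma called 0 of 14018 (0%), although 3812 (27.2%) had an unadjusted p under 0.05 and the smallest adjusted p was 0.065. The 3 Ex4 arrays all lay above the 3 WT arrays for 1272 genes (9.07%) and all below for 2088 (14.9%). Over probe sets the counts were 2451 (7.48%) and 4916 (15%). Centred on their medians, the arrays gave 5106 called probe sets, 4824 of them higher and 282 lower, so the count and its split rest on the scaling. With Ex4 replicate 1 left out, limma called 2010 genes (14.3%), of which 829 (5.91%) were higher and 1181 (8.42%) lower in Ex4, and 4433 probe sets (13.5%), of which 1415 (4.32%) were higher and 3018 (9.21%) lower. Arrays centred on their medians turn the split of that fit over, to 9567 higher and 1325 lower probe sets. Without WT replicate 1, the control array nearest to the Ex4 arrays, limma called 2353 genes. Leaving out an array because it lies between the groups draws them apart, so these calls are not independent support. Wherever a log2 difference without Ex4 replicate 1 is given below, that array minus the WT mean follows in square brackets.

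Ex4 replicate 1 itself was set beside the genes called without it. These genes were called with the same WT arrays, which pushes the values of Ex4 replicate 1 relative to WT the same way. Its shares are a description and no value for genes without a change is at hand. Of the 829 genes called higher, it was above the WT mean for 725 (87.45%, against 43.59% of all genes tested). It was above every WT array for 490 (59.11%, against 19.75%). Its median log2 difference from the WT mean was 0.38, against 0.90 for Ex4 replicates 2 and 3. Of the 1181 genes called lower, it was below every WT array for 755 (63.93%, against 31.01% of all genes tested), with a median of -0.46 against -1.61.

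**Figure D1:**
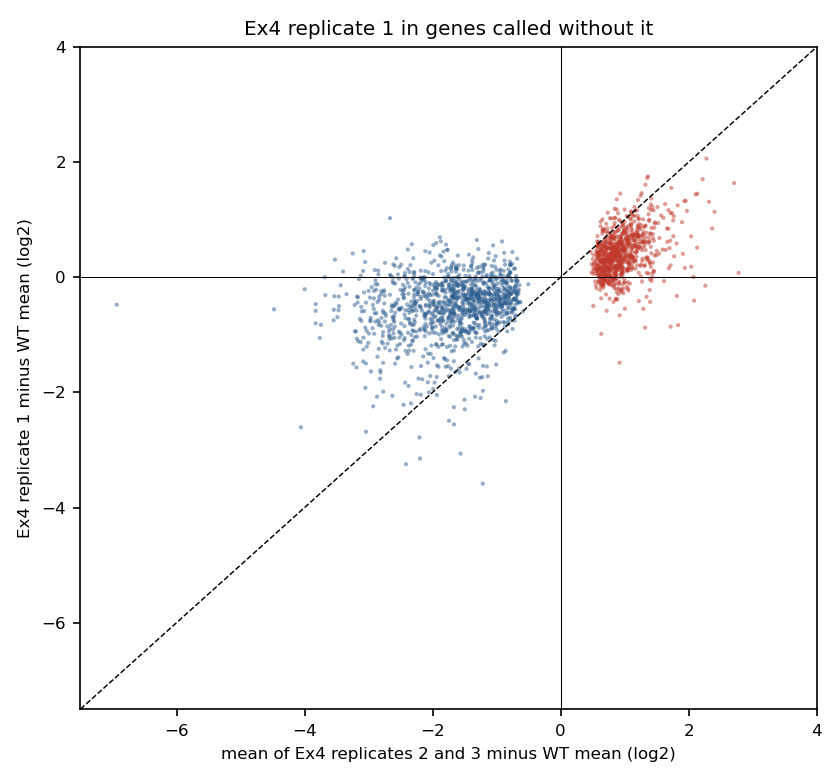
Each point is 1 of the 2010 genes called without Ex4 replicate 1 (829 higher in red, 1181 lower in blue), with the mean of Ex4 replicates 2 and 3 minus the WT mean on the horizontal axis and Ex4 replicate 1 minus the WT mean on the vertical axis (both log2, dashed line: equal). Most red points lie above 0 and below the dashed line (medians 0.90 and 0.38), and the blue points spread from -1.61 at the horizontal median to -0.46 at the vertical one.

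Examples were taken from the genes whose groups did not overlap and whose brighter group lay above the array median on all its arrays, which kept 1249 of 1272 genes upward and 1723 of 2088 downward. The 15 with the widest gap each way are described, chosen by these values and so without a test. In the upward direction the gap was at least 0.62 in log2, and the next gene under that rule, SLC25A12, had 0.61. VAV1 and NEIL2, with gaps of 1.28 and 0.76, fell outside it because the Ex4 group was not above the median on every array. ING3, a subunit of a histone acetyltransferase complex, read 4234, 3276 and 3705 in WT and 8692, 7516 and 9146 in Ex4, a difference of 1.18 ± 0.16. CXCL8, which encodes the neutrophil attractant interleukin 8, read 1057, 1612 and 2138 and 5231, 4501 and 3537 (1.49 ± 0.27), with Ex4 replicate 1 the highest array, and its second probe set had 2.48. NFE2L2, the antioxidant transcription factor NRF2, read 8620.2, 7247 and 7969.5 and 13720.1, 15559 and 16075 (0.93 ± 0.15), with all Ex4 arrays far above a tight WT group.

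RCAN1, an inhibitor of calcineurin, read 6388, 6697 and 7100.1 in WT and 11740.2, 14648 and 12148 in Ex4 (0.93 ± 0.16), but its second probe set had -0.65. GTF2B, the general transcription factor TFIIB, had 0.87 ± 0.17, DHRS2, a short-chain reductase, 1.11 ± 0.19, CDO1, a cysteine dioxygenase, 0.98 ± 0.18, and PLCB1, a phospholipase C, 1.36 ± 0.28, while other PLCB1 probe sets went as low as -1.63. DDX60, an interferon-induced helicase, had 1.64 ± 0.33. Of the rest, C9orf85 was bright and had 1.04 ± 0.20, C4orf33 had 1.05 ± 0.25, and LENEP, SPATA17, ZNF681 and CARD8-AS1 were dim, below or near the array medians in WT. The 3 C9orf85 probe sets ran from -0.32 to 1.04, and the second probe sets of CDO1 and ZNF681 had -0.06 and -1.02. All of the 15 except LENEP, SPATA17 and CARD8-AS1 were also called higher without Ex4 replicate 1.

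**Figure D2:**
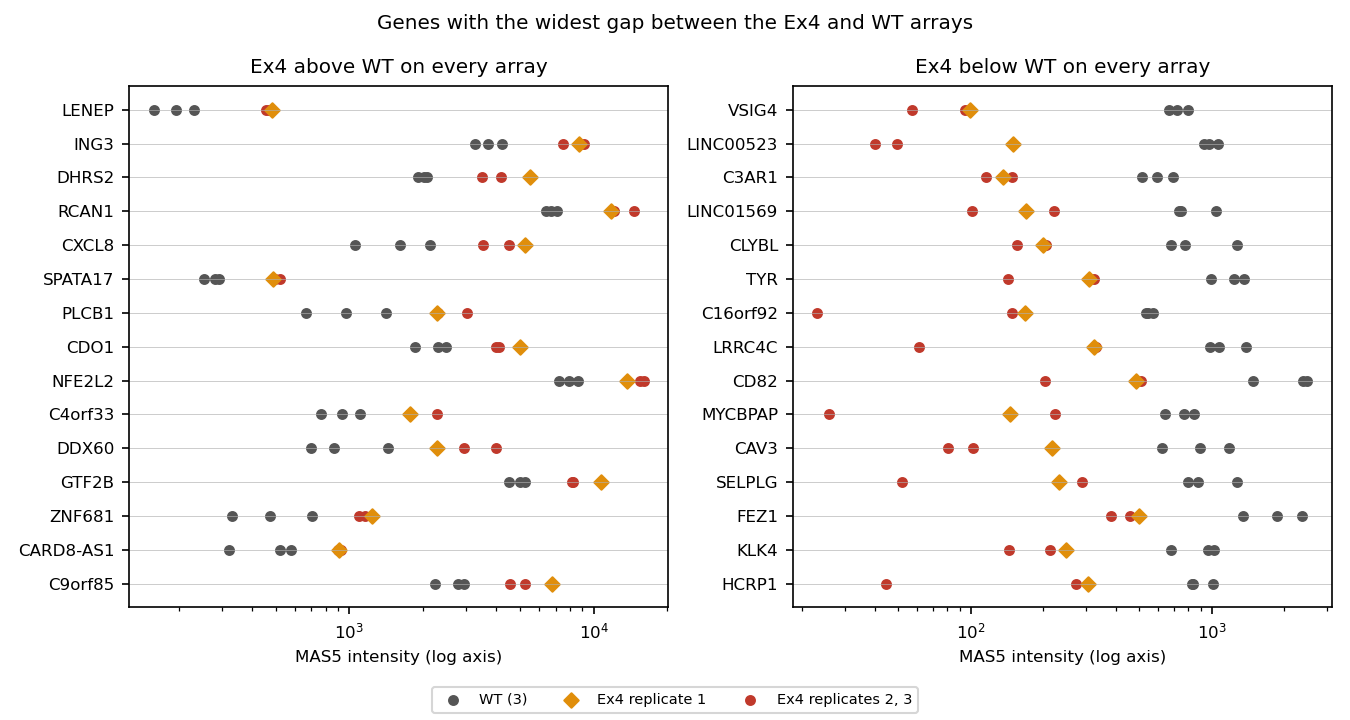
MAS5 intensity on a log axis for the 15 genes each way with the widest gap between the Ex4 and WT arrays among those whose brighter group lay above the array median (grey: 3 WT arrays, red: Ex4 replicates 2 and 3, orange diamond: Ex4 replicate 1). The upward genes include bright ones such as NFE2L2 (WT 7247 to 8620, Ex4 13720.1 to 16075), while no downward gene exceeds 509.7, the value of CD82 on Ex4 replicate 2, on any Ex4 array.

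The downward gaps were wider, at least 1.39 in log2 with 1.38 for the next gene under that rule, MGC15885, but they lay at the dim end of the arrays. VSIG4, a complement receptor of macrophages, read 665, 722 and 796 in WT and 99.5, 94.8 and 57.4 in Ex4, and C3AR1, a receptor for complement C3a, read 593, 689.7 and 515 and 137, 115 and 148. TYR, the melanin enzyme tyrosinase, read 996, 1237 and 1366 and 310, 143 and 324. These genes stood below the array median on every Ex4 array, where the size of a difference is not measured, and the same holds for LINC00523, LINC01569, CLYBL, C16orf92, MYCBPAP, CAV3, SELPLG, KLK4 and HCRP1. FEZ1, an axon outgrowth protein, was the one gene of the 15 that stayed above the array median on every Ex4 array, at 1353, 1862 and 2378 in WT and 502, 459.9 and 382 in Ex4 (-1.99 ± 0.45). CD82, a tetraspanin, read 1493, 2405 and 2500.5 and 487, 509.7 and 203 and was below the median on Ex4 replicate 3 only, and LRRC4C, a synaptic membrane protein, read 1076, 984 and 1386 and 324, 330 and 61.0, above it on Ex4 replicate 2 only.

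Restricting to the 10288 genes above the array median on all 6 arrays, a limit chosen after the values were seen, left 1181 genes all above (11.5%) and 1232 all below. After FEZ1 the widest downward gaps there were GNAO1, a G protein subunit of neurons, with 8739, 3443 and 6059 in WT and 1378, 865 and 1608 in Ex4 (-2.18 ± 0.45), AMZ1 at -1.66 ± 0.31, TNFRSF14-AS1 at -1.76 ± 0.35 and KCNJ5, a potassium channel, at -1.68 ± 0.45. The GNAO1 arrays did not overlap, with the lowest WT array at more than 2 times the highest Ex4 array. TNFRSF14-AS1 is an antisense gene, and reads from it and its partner cannot be told apart unless the probe set is strand-specific, which was not checked.

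Differences depended on brightness. Among genes with a mean log2 value of 8 to 9, 20.5% had a positive difference and 1.55% had all Ex4 arrays above WT (median -0.65). Between 12 and 13 the share positive was 64.4% (median 0.14), and between 16 and 17 the share positive was 18.3% (median -0.16). The median over all 14018 genes was -0.08 as deposited, -0.01 after quantile normalization and 0.41 once arrays were centred on their medians, so no single value serves as the reference. Most lists below lie at a mean log2 of 12 to 15, and there all genes had Ex4 arrays above WT in 17.01% (12 to 13), 19.48% (13 to 14) and 19.52% (14 to 15), with medians of 0.14, 0.15 and 0.13. In those bins 12.7%, 13.1% and 11.9% were called higher without Ex4 replicate 1. Quantile normalization, which gives all arrays the same distribution, left medians between -0.04 and 0.08 in every one of 10 equal bins of probe sets by brightness. Probe sets of a gene often disagreed, since 3656 of 7025 genes with at least 2 tested probe sets (52.0%) had both signs among them.

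Promoters of several ER chaperone genes carry the ER stress response element (ERSE, CCAAT and CCACG with 9 bases of any kind between them) or its second form (ERSE-II, ATTGG and CCACG with 1 base of any kind between them). These are letters that ATF6 and XBP1 are known to read together with NF-Y. The windows printed here hold the matches found in RefSeq promoters of genome build GRCh38.p14 for 5 genes that lay above WT on every Ex4 array and for CALR, which did not, a choice made after their values were seen. Each is written 5′ to 3′ on the strand of the gene, with the match in capitals and at most 25 bases on either side.

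HSPA5, chr9:125241366-125241434, minus strand: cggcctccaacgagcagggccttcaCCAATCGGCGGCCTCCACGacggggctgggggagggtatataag
HERPUD1, chr16:56932000-56932060, plus strand: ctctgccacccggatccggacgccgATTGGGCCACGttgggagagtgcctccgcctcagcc
HSP90B1, chr12:103930191-103930364, plus strand: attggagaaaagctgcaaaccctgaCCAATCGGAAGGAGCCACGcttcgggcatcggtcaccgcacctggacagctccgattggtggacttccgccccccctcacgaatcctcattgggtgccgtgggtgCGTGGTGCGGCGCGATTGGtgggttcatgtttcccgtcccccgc
CRELD2, chr22:49918529-49918597, plus strand: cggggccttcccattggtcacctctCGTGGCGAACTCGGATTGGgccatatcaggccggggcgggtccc
ERO1B, chr1:236282158-236282208, minus strand: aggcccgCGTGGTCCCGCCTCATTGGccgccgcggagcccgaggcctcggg
CALR, chr19:12938359-12938427, plus strand: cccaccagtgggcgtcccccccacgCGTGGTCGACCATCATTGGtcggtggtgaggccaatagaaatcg

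The match began 66 bases before the start site in HSPA5, 117 in HERPUD1, 194 and 89 in HSP90B1, 80 in CRELD2, 243 in ERO1B and 225 in CALR. It stood on the reverse strand in CRELD2, ERO1B, CALR and the second site of HSP90B1. ERSE was found, on either strand, in 27 of 35116 promoters of the same length (0.0769%) and ERSE-II in 19 (0.0541%), with 250 bases before and 50 after each start site searched. Of the 16 tested genes with ERSE, 8 had a positive difference, 4 had all Ex4 arrays above WT (HSPA5, HSP90B1, CRELD2 and ERO1B) and 1 all below (ZNF17). Their median was 0.02 against -0.06 for genes without it, an order that turned after quantile normalization (-0.08 against -0.0010). They were also brighter in WT than genes without it. Of the 16 with ERSE-II, 8 were positive, HERPUD1 was all above (6.25%, against 9.49% of genes without it), and SETD3, NUCB1 and CNKSR1 were all below. The median of the genes with ERSE-II was -0.02 against -0.06 without it, and 0.09 against -0.0013 after quantile normalization. A match is a description of these letters and not a site of binding.

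HSPA5, which encodes BiP, the HSP70 chaperone of the ER, read 40365, 32956 and 25687 on the WT arrays and 47913, 58233 and 62874 on the Ex4 arrays. Its log2 difference was 0.79 ± 0.17 (SE, limma adjusted p = 0.065), with no overlap and Ex4 replicate 1 the lowest of its group. HSP90B1, the ER's own HSP90, read 17157, 8468 and 10606 and 23094, 21862 and 21592 (0.94 ± 0.22, limma adjusted p = 0.065). Its 3 Ex4 arrays were nearly level, and the spread lay in WT, where replicate 1 was highest. The second HSP90B1 probe set, which was dimmer, had -0.02 ± 0.28, with overlapping arrays. DNAJB9, a BiP cochaperone that also restrains the sensor IRE1, read 3460.1, 2843 and 3717 and 4506, 7821 and 7366 (0.94 ± 0.22, limma adjusted p = 0.065), with Ex4 replicate 1 closer to WT than to its own group.

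DNAJC3, a cochaperone that also inhibits PERK, read 2727, 2415 and 2166 and 3368, 5122 and 4137 (0.77 ± 0.20), and CRELD2, an ER protein that binds folding enzymes, read 8598, 5798 and 5834 and 8655, 13670.3 and 11337 (0.73 ± 0.21). Ex4 replicate 1 exceeded the highest WT array of CRELD2 by a small margin only. The 4 DNAJC3 probe sets ran from -0.14 to 0.92. DNAJC10, an ER reductase of the DNAJ family, read 7783, 3744 and 4395 and 7233, 10181 and 11807 (0.92 ± 0.26), so that WT replicate 1 lay above Ex4 replicate 1, and its 5 probe sets ran from -1.27 to 1.27. In all, 13 of 23 tested chaperones were positive (56.5%, against 43.6% of all genes and 64.4% at a log2 of 12 to 13). Of these, 6 lay above WT on every Ex4 array (26.1%, against 9.07% of all genes and 17.01% of those at a log2 of 12 to 13), and 1 chaperone, FKBP9, lay below. The list's median was 0.14, as for all genes of that brightness, as deposited and 0.10 after quantile normalization. In the fit lacking Ex4 replicate 1, 7 were called higher (30.4%, against 5.91% of all genes and 12.7% at that brightness) and 0 lower. They were HSPA5 at 0.90 [0.56], HSP90B1 at 0.91 (its Ex4 replicate 1 array being the highest of the group), DNAJB9 at 1.19 [0.44], DNAJC3 at 0.92 [0.47], DNAJC10 at 1.12 [0.52], CRELD2 at 0.91 [0.38] and SDF2L1 at 0.80 [-0.08] (limma adjusted p = 0.015, 0.035, 0.0064, 0.018, 0.022, 0.019 and 0.032). The lectin chaperones were not called in either fit: CALR read 13982, 22120.5 and 18469 and 10674, 12512 and 15938 (-0.47 ± 0.22, limma adjusted p = 0.2), and CANX had -0.18 ± 0.13. Centring arrays on their medians, which adds 0.49 to every gene alike, gives 0.01 and 0.31, below the 0.41 of all genes.

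**Figure D3:**
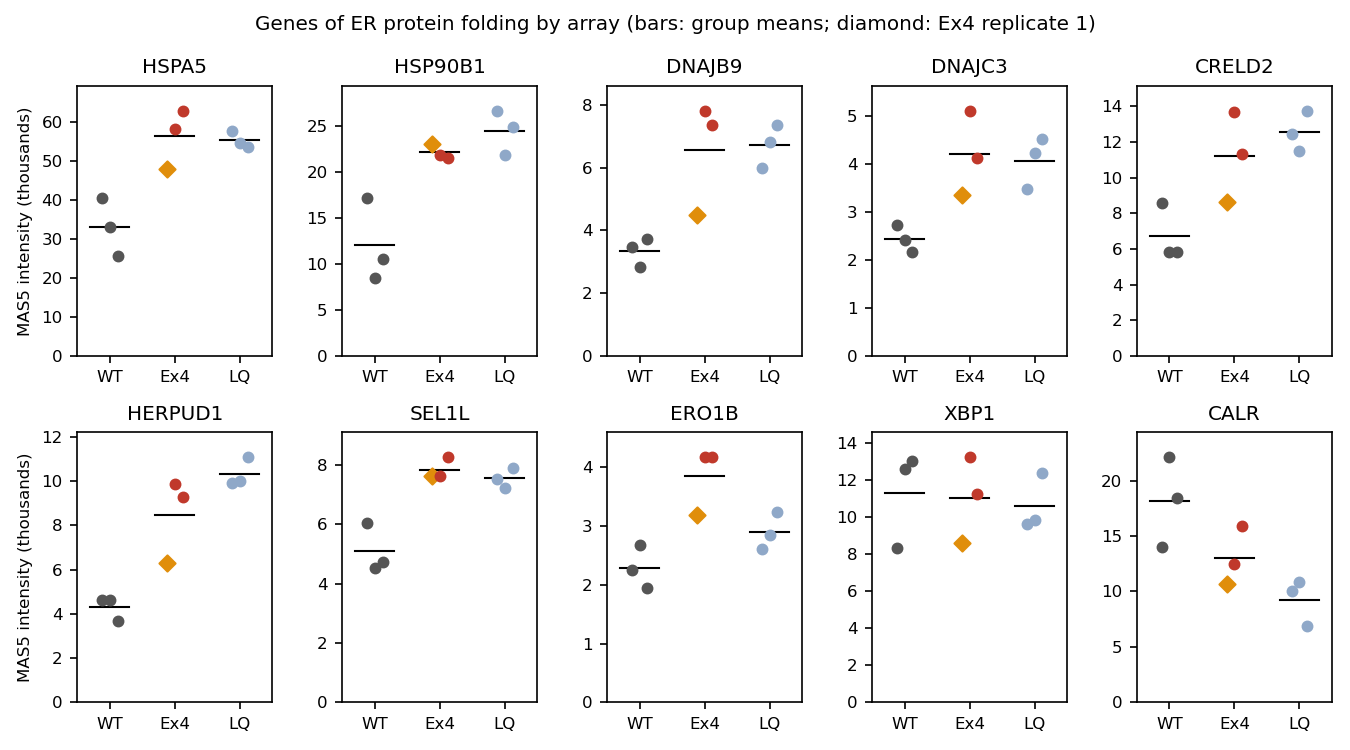
MAS5 intensity, divided by 1000, on each array for 10 genes of ER protein folding and its regulation (grey: WT, red: Ex4, blue: LQ, orange diamond: Ex4 replicate 1, bars: group means, axes start at 0). HSPA5, HSP90B1, DNAJB9, DNAJC3, CRELD2, HERPUD1, SEL1L and ERO1B have every Ex4 array above every WT array, XBP1 and CALR do not, and Ex4 replicate 1 is the lowest Ex4 array in every panel except HSP90B1.

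Of the disulfide enzymes of the ER 12 of 21 were positive, with a median of 0.04. ERO1B, TMX1 and ERP44 lay above WT on every Ex4 array (14.3%, against 17.01% of all genes at a log2 of 12 to 13) and TXNDC12 below. ERO1B, an oxidase that recharges the isomerases, read 2249.9, 2677 and 1951 in WT and 3182, 4169.8 and 4167 in Ex4 (0.74 ± 0.20). TXNDC12, a small ER thioredoxin, read 17205, 23665 and 16037 and 15785, 12581 and 8972 (-0.62 ± 0.21). Without Ex4 replicate 1 limma called ERO1B, TMX3, P4HB and TMX2 higher, at 0.87 [0.48], 0.86 [0.50], 0.65 [-0.13] and 0.56 [-0.19], and TXNDC12 lower, at -0.81 [-0.24] (limma adjusted p = 0.021, 0.046, 0.029, 0.041 and 0.026). The share called higher was 19.05%, against 5.91% of all genes and 12.7% at a log2 of 12 to 13. For P4HB and TMX2 the Ex4 replicate 1 array lay within or below the WT range.

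ER-associated degradation, the route by which misfolded ER proteins reach the proteasome, had 28 of 40 members positive, 6 above WT on every Ex4 array (15%, against 17.01% at a log2 of 12 to 13) and 3 below (DERL3, EDEM2 and BAG6). The median was 0.20 as deposited and 0.09 after quantile normalization. With all tested probe sets of each gene averaged it was 0.04, and 22 of 40 were positive. HERPUD1, which gathers the membrane complex for export, read 4638, 4634 and 3696 in WT and 6311, 9874 and 9301 in Ex4, a difference of 0.95 ± 0.19 (SE, limma adjusted p = 0.065). SEL1L, the partner of the ligase HRD1, read 6034, 4537 and 4737 and 7611, 7619 and 8260 (0.63 ± 0.16), with the Ex4 arrays level and above WT, although its 2 other probe sets were negative. SELENOK, a selenoprotein of the same complex, read 9089, 8048 and 8506 and 11763, 13539.8 and 16966 (0.71 ± 0.17). JKAMP, TRAM1 and NGLY1 had 0.64 ± 0.17, 0.46 ± 0.16 and 0.39 ± 0.16.

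With Ex4 replicate 1 left out, HERPUD1, EDEM3, SELENOK, ERLIN1, JKAMP, SEL1L and TRAM1 were called higher (1.15 [0.55], 1.17 [0.54], 0.83 [0.46], 0.79 [-0.00], 0.70 [0.52], 0.65 [0.59] and 0.58 [0.21]), and RNF5 lower (-1.99 [-0.61]). The share called higher was 17.5%, against 5.91% of all genes and 12.7% at a log2 of 12 to 13. EDEM3, a mannosidase that marks glycoproteins for export, read 4419, 2065 and 2886 and 4329.6, 6761 and 6665, so that WT replicate 1 and Ex4 replicate 1 were almost equal. Proteasome subunits were positive in 22 of 31, but only PSMA3 (0.60 ± 0.19) and PSMA4 (0.39 ± 0.14) lay above WT on every Ex4 array. That is 6.45%, against 19.52% of all genes at a log2 of 14 to 15. None lay below, and PSMC6 alone was called without Ex4 replicate 1, at 0.93 [0.18]. The proteasome median was 0.08 as deposited and -0.04 after quantile normalization.

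Of the regulators of the unfolded protein response 8 of 23 were positive, and the median was -0.07. The share positive was 34.8%, against 43.6% of all genes and 64.4% at a log2 of 12 to 13. Above WT on every Ex4 array were 6 (26.1%, against 9.07% and 17.01%), and 2 lay below. Of the transcription factors of this response, XBP1 read 8332, 12554 and 13025 in WT and 8589.8, 13217 and 11224 in Ex4 (-0.03 ± 0.21). ATF4 had -0.31 ± 0.17 and DDIT3, which encodes CHOP, -0.20 ± 0.19. All of them overlapped between the groups. With arrays centred on their medians they had 0.46, 0.18 and 0.29, where all genes had 0.41. Genes of their brightness then had medians of 0.64 (log2 of 13 to 14), 0.33 (16 to 17) and 0.62 (12 to 13), in the same order. These probe sets measure total transcript, not XBP1 splicing. ATF3, a stress-induced repressor, read 30349.7, 43961 and 38325 and 58539, 50185 and 59845 (0.59 ± 0.16), and EIF2AK3, the sensor PERK, read 5514, 3235 and 3216 and 5692, 6396 and 6151 (0.65 ± 0.21). Both lay above WT on every Ex4 array, as did NFYB, PPP1R15B, MBTPS2 and DNAJC3. MBTPS1, the protease that makes the first cut in ATF6, read 7443, 7862 and 9111 and 6946, 4334 and 3570 (-0.77 ± 0.23), below WT on every array, as did the dim CREB3L1. In the fit lacking Ex4 replicate 1, limma called DNAJC3 and PPP1R15B higher and MBTPS1 and ERN2 lower (0.92 [0.47], 0.52 [0.21], -1.04 [-0.22] and -1.99 [-0.47]), but the second MBTPS1 probe set had 0.21 with all arrays.

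Targets of ATF4, which supply amino acids and transfer RNA charging under stress, were positive in 21 of 41 with a median of 0.01. On every array 4 lay above WT (9.76%, against 19.48% of all genes at a log2 of 13 to 14). Below WT were 3 (SLC1A5, JDP2 and VLDLR, 7.32% against 2.18%). CTH, the cystathionine enzyme of cysteine supply, read 1641, 1474 and 1916 and 1938, 3904 and 3174 (0.79 ± 0.25), TARS1, which charges threonine transfer RNA, 28627, 20703 and 28867 and 33702, 40919 and 35117 (0.50 ± 0.16), and CEBPG, a partner of ATF4, 15092, 11768 and 14622 and 21715, 19178 and 16048 (0.45 ± 0.16). VEGFA was the fourth gene above WT. Only CTH and MTHFD2 were called without Ex4 replicate 1, both higher, at 1.07 [0.22] and 0.65 [0.00].

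Proteins that bring chains into the ER and glycosylate them were positive in 31 of 45, with a median of 0.15 (0.04 after quantile normalization). On every Ex4 array 7 lay above WT (15.56%) and 4 below (8.89%), against 19.48% and 2.18% of all genes at a log2 of 13 to 14. SRP19, a subunit of the signal recognition particle, read 14446, 10891 and 10576 in WT and 19459, 17579 and 17760.5 in Ex4 (0.62 ± 0.15), and ALG5, a dolichol glucosyltransferase, had 0.52 ± 0.17. PRKCSH, the beta subunit of glucosidase II, which trims glucose from new glycans, went the other way with 14941, 21379.6 and 21957 and 12044, 8769 and 6668 (-1.10 ± 0.22, limma adjusted p = 0.065). On its second probe set PRKCSH had -0.17 ± 0.23, with overlapping arrays. Without Ex4 replicate 1 SRP19, ALG5, SPCS2, SEC61B and GANAB were called higher (0.58 [0.71], 0.63 [0.29], 0.58 [0.13], 0.63 [0.01] and 0.64 [-0.98]) and PRKCSH lower, at -1.32 [-0.67]. GANAB, the alpha subunit of the same glucosidase, read 12302, 13846 and 14501 and 6836, 20408 and 21620.2, so Ex4 replicate 1 alone lay far below WT. The share of the list called higher was 11.1%, against 5.91% of all genes and 13.1% at a log2 of 13 to 14.

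Between ER and Golgi, 30 of 49 members were positive, with 9 above WT on every Ex4 array (18.4%, against 17.01% at a log2 of 12 to 13) and 3 below (SEC22B, ARFGAP1 and GOLGA2). After quantile normalization 24 of 49 were positive, and the median went from 0.08 to -0.05. ARFGAP3, which governs coat release at the Golgi, read 2295, 1273 and 1696 and 2570.3, 6587 and 5514 (1.40 ± 0.32, limma adjusted p = 0.065), with Ex4 replicate 1 just above WT replicate 1. TMED5, a cargo receptor, read 17088, 11340.4 and 8868 and 19371, 18507 and 23441 (0.76 ± 0.21), while its 5 probe sets ran from -1.52 to 0.76. GOLGA2, a Golgi tether, read 4548, 3908 and 4855 and 3532, 2631 and 1855 (-0.77 ± 0.23), but its 3 probe sets ran from -0.77 to 0.62. Called without Ex4 replicate 1 were ARFGAP3, TMED10, MCFD2, TMED5 and SEC23A higher (1.81 [0.59], 0.86 [0.09], 0.81 [0.13], 0.80 [0.69] and 0.55 [-0.14]) and ERGIC1 and GOLGA2 lower (-1.66 [-0.36] and -0.99 [-0.32]). The share called higher was 10.2%, against 12.7% of all genes at a log2 of 12 to 13.

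Cytosolic chaperones of the heat shock response were positive in 18 of 27. On every Ex4 array 4 lay above WT (14.81%, against 19.48% of all genes at a log2 of 13 to 14) and 0 below. HSPA6, an HSP70 that is nearly silent in unstressed cells, read 2087, 2185 and 1145 in WT and 2315, 4917 and 5238 in Ex4 (1.16 ± 0.36), and HSPH1, an HSP70 exchange factor, 14137, 11216 and 10935 and 16181, 16352 and 16710.3 (0.45 ± 0.15). Ex4 replicate 1 was barely above the WT range for HSPA6. STIP1 and DNAJB6 were the other genes above WT, and without Ex4 replicate 1 limma called HSPA6 and BAG3 higher (1.54 [0.41] and 0.79 [-0.06], limma adjusted p = 0.016 and 0.017).

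**Figure D4:**
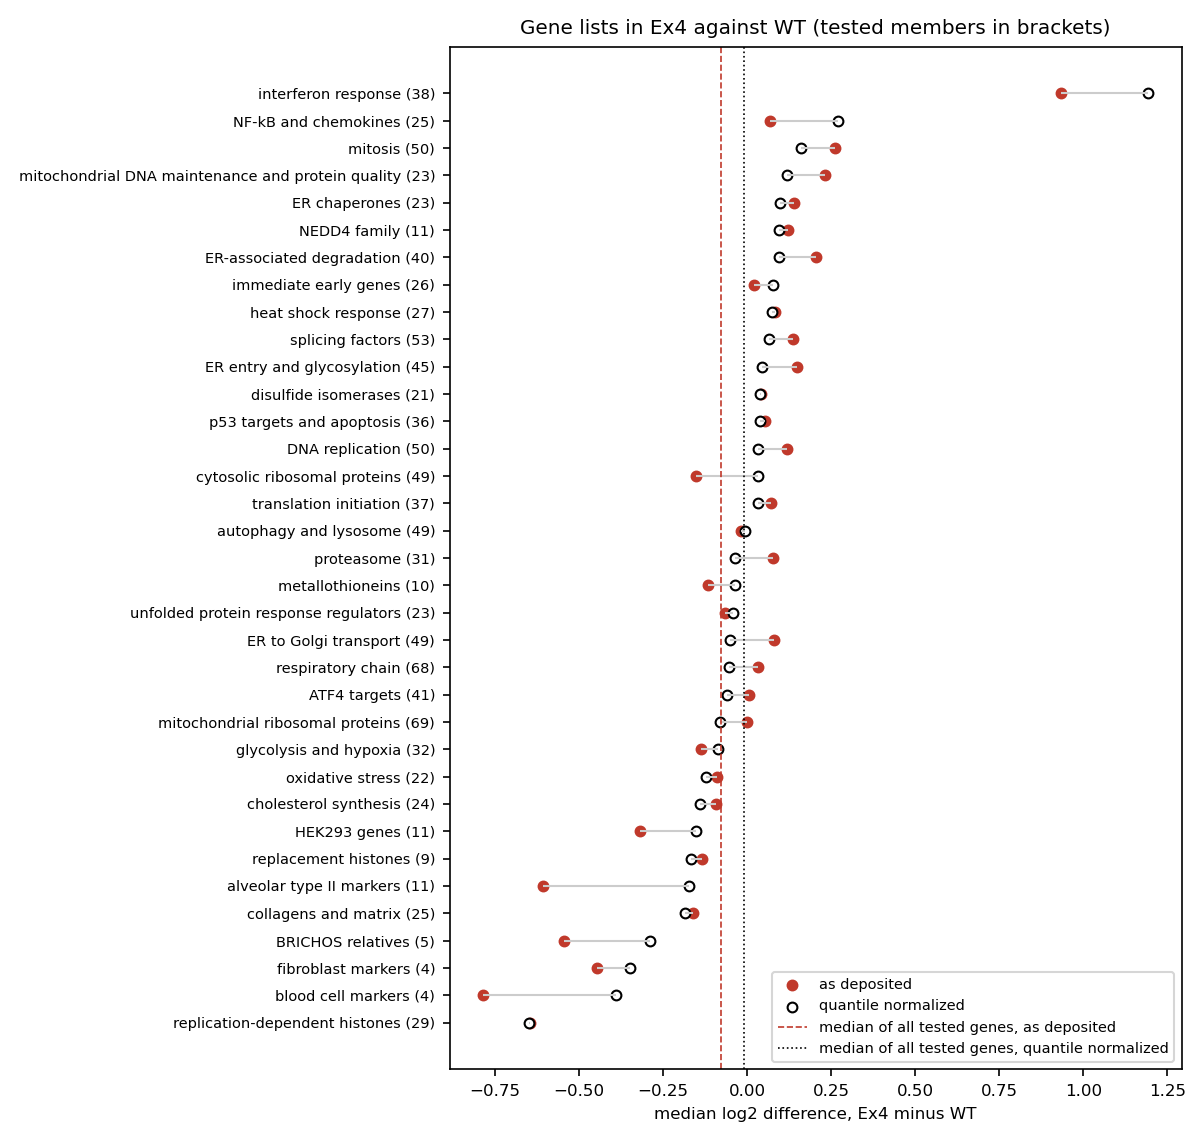
Median log2 difference, Ex4 minus WT, over the tested members (number in brackets) of 35 gene lists, as deposited (filled) and after quantile normalization (open), with the medians of all 14018 genes as vertical lines (-0.08 and -0.01). Interferon genes stand at the top (0.93 and 1.19), and at the bottom are the 4 blood cell markers as deposited (-0.79) and replication-dependent histones after quantile normalization (-0.65), while most lists lie within 0.25 of 0.

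Interferon genes were positive in 36 of 38 members, with a median of 0.93 as deposited and 1.19 after quantile normalization, but the WT arrays differed among themselves by more than that. Of its members 5 lay above WT on every Ex4 array (13.2%, against 9.07% of all genes and 11.45% at a log2 of 11 to 12) and 0 below. The mean level of the list in log2 was 9.68, 10.35 and 11.76 on the WT arrays and 11.13, 12.05 and 11.62 on the Ex4 arrays, so WT replicate 3 lay above Ex4 replicates 1 and 3. IFIT1, among the most strongly interferon-induced genes, read 2140.2, 8501 and 32403 in WT and 12435, 51775 and 34380 in Ex4 (1.74 ± 0.78). IFNB1, interferon beta itself, read 187, 208 and 1599.8 and 1287, 4238 and 1753 (2.35 ± 0.72), with WT replicate 3 above Ex4 replicate 1.

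DDX60 read 865, 698 and 1442 and 2293, 3994 and 2957, SAMD9, an antiviral restriction factor, 878, 352 and 1276 and 1339, 4186 and 3563 (1.86 ± 0.50), and IFIH1, the double-stranded RNA sensor MDA5, 1087, 1292 and 3111 and 3972, 6528 and 3997 (1.51 ± 0.42), each without overlap, as were TRIM22 and the dim SAMD9L. With Ex4 replicate 1 left out, limma called 7 higher (18.4%, against 5.91% of all genes and 7.86% at a log2 of 11 to 12). They were DDX60, SAMD9, IFI44, IFIH1, PARP9, EIF2AK2 and IFNB1 (1.83 [1.25], 2.37 [0.85], 2.40 [1.14], 1.63 [1.27], 1.41 [0.53], 0.82 [0.19] and 2.71 [1.64]). For 27 of 38 members the lowest array of the 6 was WT replicate 1. The list median was 0.56 without WT replicate 1 and 1.61 without WT replicate 3, so it rests on which control arrays are kept.

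Inflammatory genes under NF-kB were positive in 14 of 25 with a median of 0.07 (0.27 after quantile normalization). CXCL8 alone lay above WT on every Ex4 array, while CSF1, a macrophage growth factor, read 1529.7, 2844 and 3102 and 1039.5, 1352 and 1352 (-0.93 ± 0.27) and lay below, as did the dim IL11. RELA, the main transactivating subunit, read 7984, 11139.7 and 12056 and 8436, 7374 and 4676 (-0.63 ± 0.23), but its second probe set had 0.07 ± 0.28. In the fit lacking Ex4 replicate 1, CXCL8 was called higher and RELA, NFKBIB and NFKB2 lower (1.36 [1.75], -0.80 [-0.28], -0.82 [-0.15] and -0.88 [0.29]). In Ex4 replicate 1 NFKB2 lay above every WT array and in the other Ex4 arrays below, at 1623, 1505 and 2039 and 2092, 926 and 921.

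Immediate early genes were positive in 13 of 26, or 9 with all tested probe sets of each gene averaged. KLF6 (0.38 ± 0.17) was the only one above WT on every Ex4 array (3.85%, against 11.45% of all genes at a log2 of 11 to 12). Without Ex4 replicate 1, 0 were called, though Ex4 replicate 1 stood apart for some. EGR1, a growth-induced transcription factor, read 31838, 31801 and 20008 in WT and 67952, 13168 and 20430.4 in Ex4, and FOS 1182, 1279.6 and 759 and 2635, 822 and 1052, with the highest value of both genes on Ex4 replicate 1. JUN, the AP-1 partner of FOS, had 0.41 ± 0.18, and its 4 probe sets ran from -0.76 to 0.41. Antioxidant genes, the known targets of NFE2L2, were positive in 10 of 22 with a median of -0.09, and NFE2L2 itself was called higher without Ex4 replicate 1. TXN (0.15 ± 0.14) lay above WT on every array, GPX2, a gut peroxidase, read 642, 709.6 and 486 and 223, 146 and 106 and lay below, also called lower without Ex4 replicate 1 (-2.15 [-1.38]), and GCLM, the regulatory subunit of glutathione synthesis, read 4932, 3151 and 3503 and 3572, 7319 and 7807. GCLM was called higher without Ex4 replicate 1, at 0.99 [-0.09], with Ex4 replicate 1 inside the WT range. The 3 GCLM probe sets ran from -0.39 to 0.71 with all arrays.

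Zinc genes split. SLC30A1, which pumps zinc out of the cell, read 7332, 4341 and 4613 in WT and 7986, 11418 and 10532 in Ex4 (0.90 ± 0.22), and SLC39A14, a zinc importer, 5152, 4697 and 4450.1 and 5948, 7985 and 8634 (0.64 ± 0.17). MT1E, a metallothionein, read 1498, 2050.1 and 2016 and 1420.4, 829 and 569 (-1.05 ± 0.32), and MTF1, the zinc-sensing transcription factor, had -0.51 ± 0.19. The first pair lay above WT on every Ex4 array and the second below, and all 4 were called in those directions without Ex4 replicate 1 (1.05 [0.60], 0.80 [0.32], -1.40 [-0.37] and -0.66 [-0.21]). Each pair was 20% of the 10 tested, against 11.45% above and 9.97% below of all genes at a log2 of 11 to 12. On its second probe set SLC30A1 had -0.48 ± 0.19, with every Ex4 array below every WT array. SLC39A14 had -0.24 ± 0.30 on its second probe set, and MT1E had -0.09. Metallothionein probe sets can read near-identical copies.

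Among p53 targets and death genes 21 of 36 were positive, or 16 with all tested probe sets of each gene averaged. On every array 4 lay above WT and 4 below (11.11% each, against 11.45% and 9.97% of all genes at a log2 of 11 to 12). PMAIP1, the death protein NOXA, read 34233, 33125 and 34201 and 47996, 47625 and 53559 (0.55 ± 0.13, limma adjusted p = 0.065), with Ex4 replicate 1 level with its group, and MCL1, the survival protein it binds, 12234, 9340.2 and 10510.4 and 15953, 22482 and 18338 (0.82 ± 0.16). The 6 MCL1 probe sets ran from -1.33 to 0.82. CASP9, the caspase of the mitochondrial pathway, read 2486, 2740.1 and 2453 and 1666, 1506 and 1411 (-0.74 ± 0.19), and BAX, BCL2 and BID were also below WT on every array. Without Ex4 replicate 1 PMAIP1 and MCL1 were called higher (0.58 [0.50] and 0.93 [0.58]) and CASP9, TNFRSF10A and ZMAT3 lower (-0.80 [-0.61], -1.23 [-0.39] and -1.05 [0.55]).

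The histone genes made in S phase differed most within the Ex4 group. These messages end in a stem-loop and lack a poly(A) tail. H1-4 read 27635, 75258 and 58133 on the WT arrays and 35539, 328 and 459 on the Ex4 arrays, so that Ex4 replicate 1 lay among the WT arrays and the other Ex4 arrays far below. H2BC6 read 13739.7, 43055 and 44919 and 20171, 2195 and 2958, and H2AC14 6047, 23799 and 24011 and 16204, 1284 and 1570.2, with the same order. The mean of the 29 tested members was 10.53, 11.66 and 11.49 in WT and 11.21, 9.69 and 9.72 in Ex4 (log2), with WT replicate 1 the lowest of its group.

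Of the 29 histone genes, 7 were positive and 3 lay below WT on every Ex4 array (H3C11, H2AC4 and H2BC21). That is 10.34%, against 18.1% of all genes at a log2 of 10 to 11. The median was -0.65 as deposited and after quantile normalization, -0.16 with arrays centred on their medians and -1.01 without Ex4 replicate 1. With Ex4 replicate 1 left out, limma called 13 lower (44.8%, against 8.42% of all genes and 9.74% at a log2 of 10 to 11) and 1 higher, with H1-4 at -6.93 [-0.48] and H2BC6 at -3.54 [-0.56] (limma adjusted p = 8.5e-06 and 0.004). The one higher was H2AC6, at 3093, 3283 and 4493 and 6985, 6143 and 8350.2 (0.99 ± 0.19 with all arrays), above WT on every Ex4 array together with H4C8 and H3C6. Histone probe sets can read near-identical copies, so single members are uncertain. Replacement histones, whose messages are polyadenylated, had 0 of 9 outside the WT range on every array and a median of -0.13.

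**Figure D5:**
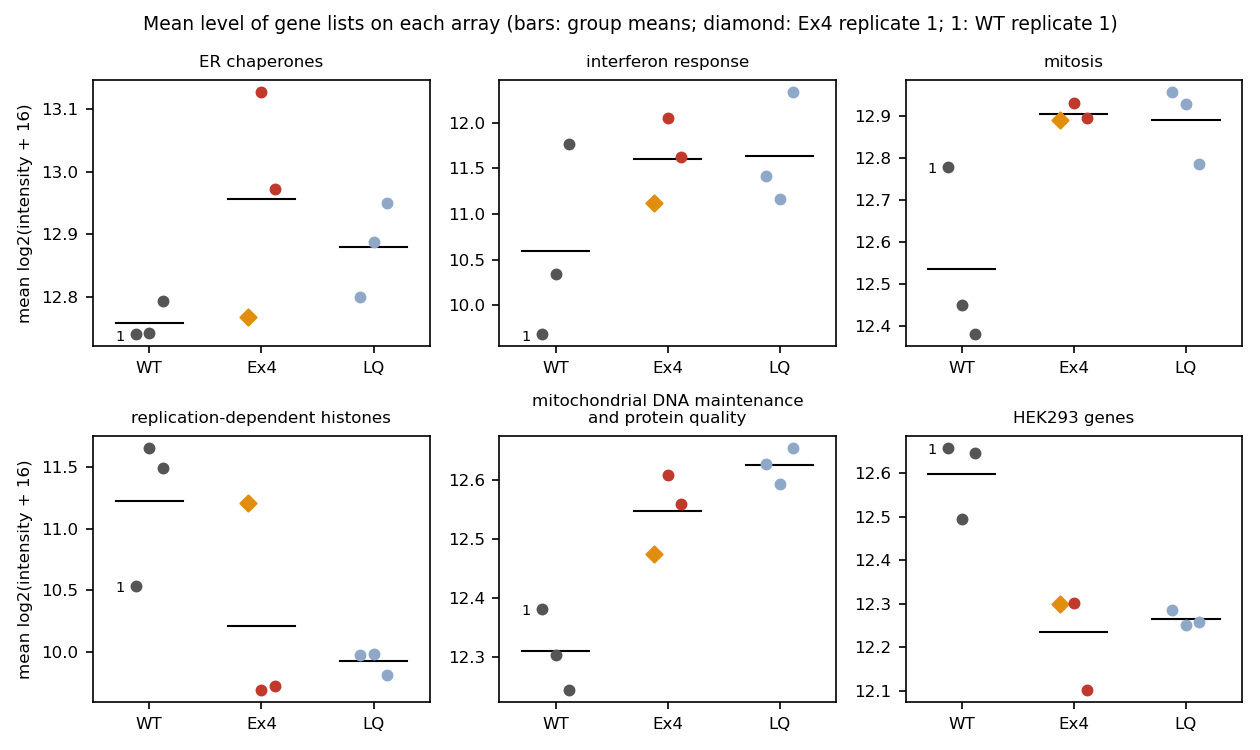
Mean log2(intensity + 16) over the tested members of 6 gene lists on each array (grey: WT with replicate 1 marked, red: Ex4, blue: LQ, orange diamond: Ex4 replicate 1, bars: group means). Ex4 replicate 1 lies with WT for the ER chaperones (12.77) and the replication-dependent histones (11.21) and with Ex4 for mitosis (12.89) and the HEK293 genes (12.30), and WT replicate 1 is the lowest array for interferon (9.68) and the highest WT array for mitosis (12.78).

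DNA replication genes had 36 of 50 positive, 9 above WT on every array (18%, against 17.01% at a log2 of 12 to 13) and 1, GINS4, below. Their median of 0.12 was under the 0.14 of all genes of that brightness (0.03 after quantile normalization). RFC1, the large clamp loader subunit, read 3724, 2516 and 3306 and 4444, 5119 and 5472 (0.67 ± 0.19), and MCM3, of the replicative helicase, 15164, 13149 and 13885 and 17488, 20964 and 18903 (0.44 ± 0.13). Mitosis genes had 35 of 50 positive, 9 above (18%) and TPX2 and KIF20A below. Their median was 0.26 (0.16 after quantile normalization). CKAP2, a spindle protein, read 11151, 5856 and 5806 and 14698, 13432 and 21090.1 (1.15 ± 0.25), and CDK1, the mitotic kinase, 13054, 4247 and 4563 and 13338, 19022 and 18614 (1.40 ± 0.35). The 4 CDK1 probe sets ran from -0.43 to 1.40, and the second brightest, 210559_s_at, had 0.30 ± 0.21 with overlapping arrays.

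WT replicate 1 stood with Ex4 for several of these, being the highest WT array for 24 of 50 mitosis genes. HMMR, a spindle protein, read 7517, 4110 and 3095 and 7821, 10353 and 13021, with Ex4 replicate 1 barely above WT replicate 1. NEK2, a centrosome kinase, differed in that its WT arrays were level, at 4437, 4145 and 4636, with 6364, 6886 and 6380.5 in Ex4 (0.57 ± 0.14). In the fit lacking Ex4 replicate 1, CDK1, HMMR, CKAP2, KIF4A and NEK2 were called higher (1.57 [1.07], 1.34 [0.77], 1.22 [1.02], 0.62 [0.05] and 0.59 [0.53]). In replication DUT, RFC1, ORC3, CDC6, MCM4 and MCM3 were higher and GINS4 lower (0.88 [0.05], 0.75 [0.50], 0.73 [0.29], 0.59 [0.17], 0.57 [0.34], 0.50 [0.32] and -1.70 [-0.59]). The shares called higher were 10% in mitosis and 12% in replication, against 12.7% of all genes at a log2 of 12 to 13.

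Around TFAM, the factors of mitochondrial DNA and protein quality were positive in 19 of 23, or 15 with all tested probe sets of each gene averaged. On every Ex4 array 4 lay above WT (17.39%, against 17.01% of all genes at a log2 of 12 to 13) and 0 below. The list's median was 0.23 (0.12 after quantile normalization). TWNK, the mitochondrial DNA helicase, read 3289.6, 2786 and 3203 in WT and 3963, 4967 and 4336 in Ex4 (0.51 ± 0.17), and CLPX, a matrix unfoldase, 3079, 1935 and 2468 and 3264, 3739 and 4319.8 (0.61 ± 0.20). DNAJA3 was the fourth, and TFAM and TWNK were called higher without Ex4 replicate 1 (0.95 [0.73] and 0.59 [0.36]). The respiratory chain had 36 of 68 positive, 6 above (8.82%, against 19.52% of all genes at a log2 of 14 to 15) and 0 below. COX6C, a subunit of cytochrome oxidase, read 18634, 14631 and 14752 and 21487, 29618 and 33468 (0.80 ± 0.18). The list's median was 0.03 as deposited and -0.06 after quantile normalization. Mitochondrial ribosomal proteins had 34 of 69 positive, with a median of 0.00. Of these proteins 11 lay above (15.94%, against 19.48% of all genes at a log2 of 13 to 14) and 1 below (MRPS27). Among those above were MRPL50 (0.79 ± 0.20) and MRPL32 (0.42 ± 0.13).

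Cytosolic ribosomal proteins had 11 of 49 positive (22.45%, against 18.33% of all genes at a log2 of 16 to 17). Their median was -0.15, against -0.16 for all genes of that brightness, and became 0.03 after quantile normalization. RPL3 read 30764, 36143 and 42491 and 42057, 74767 and 77249 (0.79 ± 0.22) and was called higher without Ex4 replicate 1, as was RPL35A (0.90 [-0.19]), while RPL27A had -1.24 ± 0.29 on a probe set that read 2242, 4237 and 3268 and 1729.8, 1025 and 1313. Splicing factors had 32 of 53 positive, 10 above WT on every array (18.9%, against 19.52% at a log2 of 14 to 15) and 3 below. CLK4, a kinase of splicing proteins, read 3373, 1788 and 1969 and 5176, 4576 and 4585 (1.06 ± 0.23), MBNL1, a splicing regulator, read 5554, 3352 and 2878 and 5686, 6743 and 11196, and HNRNPL, another, had -0.98 ± 0.26 with 5051, 8984 and 7415 and 4214, 3782 and 2752. The 6 MBNL1 probe sets ran from -0.90 to 1.45. Of 37 translation initiation factors 25 were positive, with EIF3A at 0.70 ± 0.21 and EIF3I at -0.80 ± 0.21, the second at 36075, 38636 and 51149.7 and 33084, 19794 and 20563 and called lower without Ex4 replicate 1 (-1.04 [-0.33]).

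Glucose and hypoxia genes were positive in 12 of 32. On every Ex4 array 2 lay above WT (6.25%) and 5 below (15.62%), against 17.01% and 5.76% of all genes at a log2 of 12 to 13. HIF1A, the oxygen-regulated transcription factor, read 26686, 15815 and 17377 in WT and 30804, 32464 and 42656 in Ex4 (0.85 ± 0.20), while SLC2A1, the glucose transporter GLUT1, read 3846, 5559.8 and 5682 and 3817, 1822 and 1752 (-1.10 ± 0.28) and ALDOC, an aldolase, had -1.22 ± 0.33. Sterol genes split, with IDI1 at 0.63 ± 0.18, ACACA at -0.54 ± 0.16 and DHCR7 at -0.58 ± 0.18 among 9 of 24 positive. The 4 IDI1 probe sets ran from -0.78 to 0.63, and the 2 of DHCR7 had -0.58 and 0.21. Autophagy and lysosome genes were positive in 24 of 49, with 8 above (16.33%, against 17.01% of all genes at a log2 of 12 to 13) and 3 below. ATG12, a conjugation protein of autophagy, read 4879, 4089 and 3956 and 8761, 6935 and 7742 (0.86 ± 0.16). Its 3 probe sets ran from -0.11 to 1.71. RB1CC1, a scaffold of the initiation complex of autophagy, read 10677, 3178 and 2358 and 11625, 12235 and 11527 (1.45 ± 0.41). NEDD4 ligases, a family that binds the cytosolic tail of the proprotein, had 9 of 11 positive and a median of 0.12, with NEDD4L at 6488, 6774 and 6364 and 8665, 7338 and 7349 (0.25 ± 0.14). The 6 NEDD4L probe sets ran from -1.56 to 0.99. With all tested probe sets of each gene averaged, 7 of the 11 were positive.

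Collagen and matrix genes were positive in 8 of 25, with 5 below WT on every array (20%, against 9.97% of all genes at a log2 of 11 to 12). COL6A1, a chain of microfibrillar collagen, read 3138, 4155 and 3959 and 1721, 2304 and 1459 (-1.05 ± 0.21) and was called lower without Ex4 replicate 1 (-1.02 [-1.11]), while COL12A1 had 0.55 ± 0.19. The 4 COL12A1 probe sets ran from -0.80 to 0.55. Kidney transcription factors of HEK293 were lower in value too: PAX2 read 2026, 1533 and 2801 and 1149.5, 385 and 415 (-1.82 ± 0.40), and PAX8 2982, 3079 and 4728 and 2604, 1449 and 1551 (-0.96 ± 0.26). Both lay below WT on every Ex4 array and were called lower without Ex4 replicate 1 (-2.32 [-0.83] and -1.22 [-0.43]), but the second PAX2 probe set had 0.22. LIN28B, an RNA-binding protein of embryonic cells, read 11434, 6209.6 and 7079 and 10443, 11640.2 and 12369. Of 5 tested relatives with a BRICHOS domain 1 was positive, and none lay outside the WT range on every array. GKN2, a stomach protein, was dim at 479, 303 and 654 and 491, 141 and 118 and was the one called lower without Ex4 replicate 1. Markers of other cell types were tested in small numbers: 2 of 11 for alveolar type II cells were positive (median -0.61 as deposited, -0.17 after quantile normalization), 0 of 4 for fibroblasts (-0.45 and -0.35) and 0 of 4 for blood cells (-0.79 and -0.39). These lists were dim, with median log2 values of 9.17, 9.40 and 8.37. All genes had a median of -0.65 as deposited at a log2 of 8 to 9 and -0.37 at 9 to 10, with 20.5% and 26.1% positive. The 11 HEK293 genes had 2 positive and a median of -0.32 (-0.15).

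Some genes were chosen because Ex4 replicates 2 and 3 lay apart from the WT arrays, whatever Ex4 replicate 1 did. AAGAB, a chaperone of clathrin adaptor assembly, read 335, 877 and 1177 on the WT arrays and 743, 5062 and 4809 on the Ex4 arrays, so Ex4 replicate 1 lay among the WT arrays. RMND5A, a ubiquitin ligase subunit, read 3302, 2728 and 3024 and 3254, 8759 and 7832, within the WT range on Ex4 replicate 1 as well. The dimmer RMND5A probe sets, 212479_s_at and 212478_at, had -0.10 and -0.17, with overlapping arrays. Those of AAGAB, also dimmer, had 0.42 and 0.13. GAB2, a signalling adaptor, read 252, 215 and 298 and 187, 1105 and 1149.8, and there, as in CDC42EP2 and ZDHHC12, Ex4 replicate 1 lay below every WT array. Ex4 replicate 1 lay above the WT arrays for MAP2, at 1107, 913 and 1121 and 1684, 3262 and 2889.7, and for VAV1 and NEIL2. The second MAP2 probe set had -0.05. In the other direction, apart from the histones H1-4 and H3C11, the widest gaps were in LINC00523, C4orf17, GNAO1-AS1, NKX6-3, TCP11L2, LOC101927950, TMEM95 and SLC12A1, all below the array median on Ex4 replicates 2 and 3 except TMEM95 on replicate 2.

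Against the L188Q form, the calls of Ex4 lay in SFTPC alone. Of 32768 probe sets limma called 2 (0.0061%), the same pair of SFTPC as against WT, and 0 of 14018 genes (0%), while 1345 probe sets had an unadjusted p under 0.05. HSPA5 read 57613, 54507 and 53482 on the LQ arrays (Ex4 minus LQ 0.02 ± 0.17), HERPUD1 9911, 10027 and 11094 (-0.31 ± 0.19), 203176_s_at of TFAM 7942, 7794 and 8335 (-0.21 ± 0.15) and CALR 10025, 10817 and 6919.8 (0.50 ± 0.22). For H1-4 the LQ arrays read 1454, 986 and 1029, and for AAGAB 5549, 6148 and 5805, RMND5A 6174, 7451 and 7001 and GAB2 1129, 662 and 998, closer to Ex4 replicates 2 and 3 than to Ex4 replicate 1. On 212479_s_at of RMND5A the LQ arrays read 3547, 3609 and 3175 and the Ex4 arrays 4104, 2059 and 2996. COL6A1 had 0.20 ± 0.21, and ERO1B read 2607, 2848 and 3243 on the LQ arrays (0.40 ± 0.20). HSPA6 lay further apart, at 1250, 744 and 703 on the LQ arrays and 2315, 4917 and 5238 on the Ex4 arrays. Its second probe set also had every LQ array below every Ex4 array. HSPA6 was not called, and a p that misses the threshold does not show that the forms act alike.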

How the data were processed

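RNA from HEK293 cells was measured on 9 single-colour human expression arrays, 3 per group. The deposited values are linear array intensities, and the submitters' processing notes name MAS5 as the method the authors used (no version is stated there). Trimmed means (percentiles 2 to 98) of 1493.32 to 1494.85 per array show that each array was scaled to a common level. MAS5 subtracts mismatch signal, so dim probe sets are noisy. Arrays have no read depth, and their number limits the precision.

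After 62 controls were removed, log2(intensity + 16) was tested for the 32768 of 54613 probe sets whose mean lay above the percentile 40. limma 3.58.1 in R 4.3.3 fitted the 9 arrays with a variance trend, and p-values were adjusted by Benjamini-Hochberg (threshold 0.05). Symbols came from GEO's platform annotation, updated through RefSeq: 41091 probe sets had 1 symbol, 1801 several and 11721 none. A gene was represented by its brightest probe set. The fit was tested on simulated data.

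The members and all 35 gene lists were chosen with earlier results of these data known. Named genes were those fixed for the protein's fate, 3 per list, the 15 with the widest gap each way among non-overlapping genes whose brighter group lay above the array median on all its arrays, and the 10 each way that set Ex4 replicates 2 and 3 apart from WT under the same brightness rule on those arrays; others were named after their values were seen. Same-numbered WT and Ex4 arrays had deviations that correlated at -0.07, 0.01 and -0.08, so the numbers were not used as pairs. The other settings tried were quantile normalization, centring on the median, pseudocounts of 1 and 64, no filter, a filter at percentile 60, no variance trend, array weights, a replicate block, only the arrays compared, and each array left out. For the lists, the mean of all tested probe sets of a gene was tried as well.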

Additional observations from a re-analysis of the deposited data

Results flagged for a closer look

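The Ex4 and LQ arrays differed from each other in SFTPC on the same pair of probe sets that separated Ex4 from WT. On 205982_x_at the log2 difference, Ex4 minus LQ, was -2.39, with LQ arrays at 129022, 107088 and 116128. On 214387_x_at it was -9.77, with LQ arrays at 126185, 108292 and 112695, and Ex4 replicates 2 and 3 were below their array medians there. Both were tested directly in limma, with adjusted p = 0.0002 and 0.00082. The groups have 3 arrays each, too few for a test of single outlying arrays.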

How the results depend on the processing

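The 4 probe sets called between Ex4 and WT became 10 after quantile normalization, 5106 with arrays centred on their medians, 5287 with array weights and 2 with only the arrays compared, and 2 to 4433 when 1 array was left out. The 0 genes called became 3116 with centring and 2784 with array weights, and 0 to 2353 when 1 array was left out. Centring adds 0.49 to every difference by its construction; the cause of the other changes was not tested. Without Ex4 replicate 1 the 4433 probe sets became 2281 after quantile normalization, 10892 with centring (9567 higher and 1325 lower, against 1415 and 3018), 2028 with only the arrays compared, and 1228 to 8314 when a second array was left out. Those further fits were chosen after seeing the data. With the replicate number as a block 4 probe sets were called between Ex4 and WT. Between Ex4 and LQ, 1 was called without the variance trend and 2 to 3 when 1 array was left out.

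Of 216 genes named here, 20 turned sign under some alternative. With centring the values became 0.14 for ARFGAP1, 0.18 for ATF4, 0.037 for ATF6, 0.33 for BAG6, 0.13 for BID, 0.014 for CALR, 0.31 for CANX, 0.29 for DDIT3, 0.44 for EGR1, 0.10 for FKBP9, 0.10 for H2BC21, 0.10 for KIF20A, 0.0017 for NFKB2, 0.13 for SEC22B, 0.24 for SETD3, 0.082 for SLC1A5, 0.0068 for TPX2 and 0.46 for XBP1. GANAB became -0.037 after quantile normalization. When 1 array was left out, GANAB ran from -0.19 to 0.64, EGR1 from -0.73 to 0.45, XBP1 from -0.24 to 0.14 and FOS from -0.17 to 0.66. Of 385 list medians under alternatives, 61 moved by more than the spread between arrays, 32 of them with centring. Genes below the array medians have no measured size.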
